A study of Mus musculus with 6 samples.

Results

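Integrins, cadherins and cell adhesion molecules are the surface proteins through which cells hold on to matrix and to each other, and 54 of their genes were followed in 2 populations of bone marrow stromal cells. The genes were those with a symbol beginning Itga, the integrin beta genes numbered 1 to 8, the cadherin genes with the symbol Cdh and a number, and Vcam1, Icam1, Icam2, Ncam1 and Alcam. That gave 18 integrin alpha, 8 integrin beta, 23 cadherin and 5 immunoglobulin superfamily genes of the 19938 genes with a probe set of their own. The cells were Cxcl12-abundant reticular (CAR) cells, stromal cells of the marrow that make much of the chemokine Cxcl12, sorted by flow cytometry from femur and tibia. Targeted CAR cells were those reached by Dmp1-Cre, a Cre transgene under control of sequence from Dmp1, which late osteoblasts and osteocytes use to make a matrix protein, and non-targeted CAR cells were those it had not reached. Both populations came from C57BL/6 mice aged 7 weeks with the genotype Dmp1-Cre Cxcl12-gfp/+, so the controls carry the Cre transgene and the Cxcl12-gfp allele too, and Cxcl12 is heterozygous throughout. There were 3 arrays of each population, 6 in all, each from the cells of 1 mouse. By the design text 3 mice gave both populations, while the labels do not tie a replicate number to a mouse or say how targeting was made visible.

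Integrins are pairs of an alpha and a beta chain that bind matrix proteins or receptors of other cells and link them to the actin cytoskeleton through adaptors such as talin and vinculin. Cadherins bind like cadherins on a neighbouring cell in the presence of calcium and are anchored inside the cell by catenins. VCAM-1 and the ICAM proteins are counter-receptors for leukocyte integrins, and in marrow VCAM-1 on stromal cells is known for holding blood-forming cells in place.

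The arrays measured the populations with similar overall brightness, with median intensities from 79.4 to 87.5. Across genes, which are not independent replicates, the log2 intensities of any pair of arrays correlated at 0.91 to 0.96. Dmp1 itself, whose sequence drives the Cre, was at 11.28, 10.03 and 9.89 on the log2 scale on the targeted arrays, against 7.51, 6.93 and 6.91 on the non-targeted arrays. It did not pass over all genes (limma, Benjamini-Hochberg adjusted p = 0.384). Cxcl12 was at 12.32, 12.22 and 12.40 on the targeted arrays, against 12.32, 12.65 and 12.63 on the non-targeted arrays, so the marker that names these cells was bright on all 6. Targeted replicate 1 had the highest Dmp1 level of the 6 arrays. The tested neutrophil markers averaged 6.50 there and 8.09 and 8.76 on the remaining targeted arrays, against 8.45, 8.79 and 9.11 in non-targeted cells. The 9 tested osteoblast and osteocyte markers averaged 9.85, 9.21 and 9.23 on the targeted arrays, against 8.78, 8.68 and 8.65 on the non-targeted arrays. That average includes Dmp1 itself, with a log2 difference of 3.28. Of the 9, 8 were higher and 1 lower in targeted cells, with a median of 0.39. Ibsp and Sost were nearly level, at 0.05 and 0.04, and Phex was the lower one, at -0.22. The part of these cell types in the values below was not tested, and values without an array are given for the named adhesion and partner genes with a difference over 0.2 that moved by more than 1.5 times when it was left out.

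No adhesion gene passed the test between the populations, while 5 had arrays that did not overlap. Genes were tested if their mean log2 intensity lay above 6.00, which leaves out the dimmest 33.3% of all genes, and 33 of the 54 adhesion genes passed that filter. With limma, 0 of the 33 had an adjusted p under 0.05, as did 0% of the 13292 genes tested. Of the 33, 4 had an unadjusted p under 0.05, where the share over all genes tested was 4.77%. All 4 were higher in targeted cells, where 1.35% of all genes tested had such a p and were higher and 3.42% had such a p and were lower. Ncam1, Itga10, Itgb5 and Itgb3 lay higher on every targeted array than on any non-targeted array, which held for 3.32% of all genes tested. Cdh13 lay lower on every targeted array than on any non-targeted array, which held for 5.76% of all genes tested, and separation in either direction held for 9.07%. Of the 33, 18 were higher and 15 lower in targeted cells, with a median log2 difference of 0.04, where 48.9% of all genes tested were higher and their median was -0.0051. For 23 of the 33 the difference was under 0.25 on the log2 scale in either direction, or 69.7%, beside 73.9% of all genes tested. The counts of genes with separate arrays depend on the scaling: over all genes they were 441 higher and 765 lower as deposited, and 671 higher and 661 lower after quantile normalization. Among the adhesion genes quantile normalization gave 5 higher and 1 lower, adding Cdh15 and Vcam1 and dropping Cdh13. With cyclic loess the split over all genes was 678 higher and 698 lower, with Cdh15 and Vcam1 joining the 5 genes, and with arrays centred on their medians it was 566 and 626, with Cdh15 in and Cdh13 out. In sorted cells taken as bulk RNA, fewer cells with a transcript and less of it in each cell cannot be told apart.

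**Figure D1:**
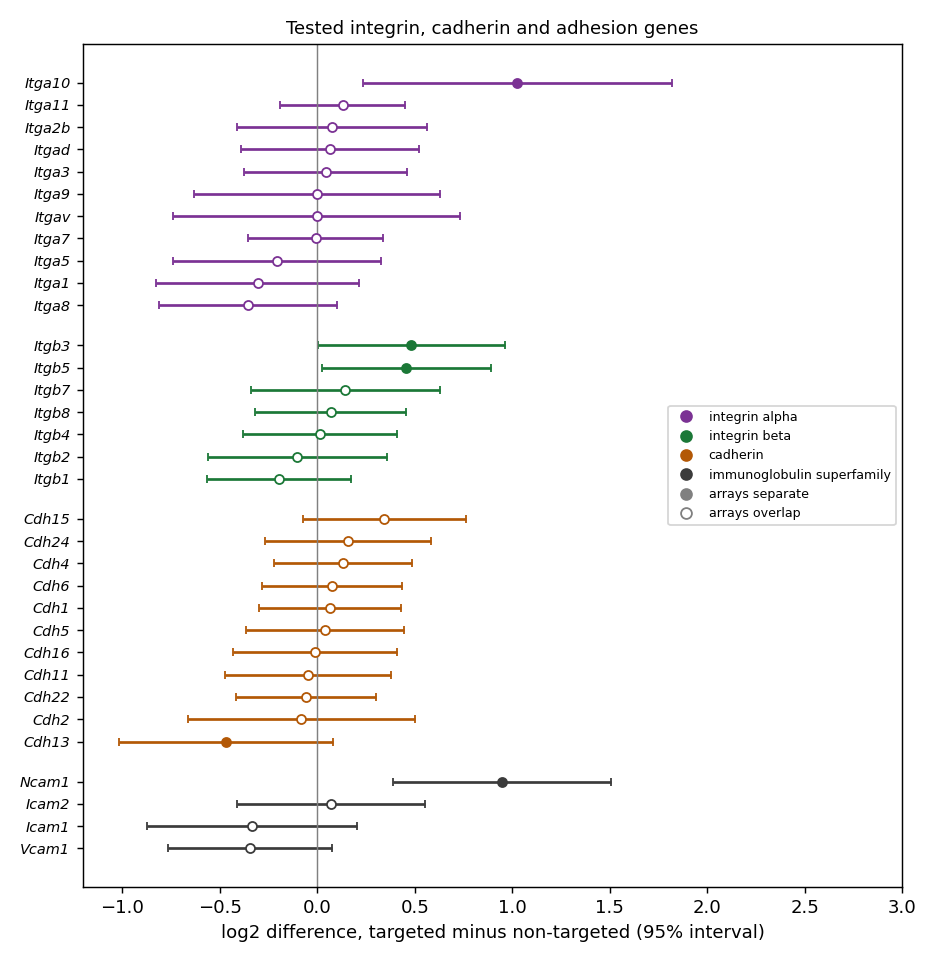
Log2 differences (targeted minus non-targeted, x axis) of the 33 tested adhesion genes by family, with the 95% interval of the limma fit, n = 3 arrays per population. Filled points are the 5 genes whose arrays do not overlap, Itga10, Itgb3, Itgb5 and Ncam1 to the right of 0 and Cdh13 to the left. The intervals of Itga10, Itgb3, Itgb5 and Ncam1 exclude 0 and those of the remaining genes include it.

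Among the integrin alpha chains, Itga10 differed most in size and was higher in targeted cells. Itga10 encodes a chain that pairs with the Itgb1 product to bind collagen and is best known from cartilage. Its log2 intensities were 8.65, 7.42 and 7.30 on the targeted arrays, against 6.71, 6.67 and 6.90 on the non-targeted arrays. All targeted arrays lay above the others, and the first targeted array lay far above the remaining ones. The mean was 7.79 ± 0.75 on the targeted arrays, against 6.76 ± 0.12 on the non-targeted arrays (SD over 3 arrays each), or 2.04 times the intensity. The log2 difference of 1.03 (SE 0.34, 95% interval 0.23 to 1.82) did not pass (limma, adjusted p = 0.947). Without targeted replicate 1 the log2 difference was 0.60. The chondrocyte markers, given because Itga10 is known from cartilage, held 6 tested genes of 10, of which 5 were higher, with a median of 0.16. Their intensities summed to 1215 to 1482 on the targeted arrays, against 1189 to 1384 in non-targeted cells, and the cartilage proteoglycan gene Acan was under the filter. None of the marker genes was at 0 on any array, as array intensities have no true 0, and the part of cartilage cells in the Itga10 result was not tested.

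Of the beta chains, Itgb5 and Itgb3 were both higher on every targeted array. Both encode partners of the Itgav product in receptors that bind the arginine-glycine-aspartate motif of vitronectin and other matrix proteins. Itgb5 was at 9.65, 9.16 and 9.17 on the targeted arrays, against 9.004, 8.89 and 8.72 on the non-targeted arrays. The gap between the groups was narrow, and the first targeted array was again the highest. The difference was 1.37-fold (log2 difference 0.46, SE 0.19, 95% interval 0.02 to 0.89) and did not pass (limma, adjusted p = 0.9998). Itgb3 was at 7.54, 6.95 and 6.84 on the targeted arrays, against 6.66, 6.60 and 6.62 on the non-targeted arrays. The non-targeted arrays lay within a narrow band below all targeted ones. The difference was 1.398-fold (log2 difference 0.48, SE 0.21, 95% interval 0.0048 to 0.96) and did not pass (limma, adjusted p = 0.9998). Without targeted replicate 1 the log2 differences were 0.29 for Itgb5 and 0.27 for Itgb3, and with each array centred on its median neither had an unadjusted p under 0.05.

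Platelets and their precursors carry the Itgb3 product with that of Itga2b, and osteoclasts carry it with that of Itgav. Itga2b was at 6.42, 7.10 and 7.04 on the targeted arrays, against 6.85, 6.65 and 6.82 on the non-targeted arrays. It was lowest on targeted replicate 1, the array on which Itgb3 was highest. The median of the 33 tested adhesion genes was lowest on that array too, at 6.63, against 6.66 to 6.89 over the non-targeted arrays. The 6 megakaryocyte and platelet markers with a value summed to 367 to 528 on the targeted arrays, against 435 to 642 in non-targeted cells. Of their 4 tested genes 3 were higher in targeted cells, with a median log2 difference of 0.05, and Pf4, a platelet chemokine gene, differed by -0.79 without passing (limma, adjusted p = 0.9998). The 8 osteoclast markers summed to 1107, 811 and 738 on the targeted arrays, against 749, 754 and 731 on the non-targeted arrays. This sum was highest on targeted replicate 1, where Itgb3 was highest too. Of the 5 tested osteoclast genes 4 were higher, with a median of 0.12, and their part in the Itgb3 value was not tested.

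The promoters of Itga10 and Itgb5 are shown because both genes had separate arrays and both are among the 33 adhesion genes matched in RefSeq's promoter set for GRCm38.p6. Each stretch is the 250 bases before the annotated start, 5′ to 3′ on the + strand, at chr3:96645334-96645583 for Itga10 and at chr16:33829415-33829664 for Itgb5. Capitals mark the GC box GGGCGG on either strand, a site known for binding Sp1.
Itga10: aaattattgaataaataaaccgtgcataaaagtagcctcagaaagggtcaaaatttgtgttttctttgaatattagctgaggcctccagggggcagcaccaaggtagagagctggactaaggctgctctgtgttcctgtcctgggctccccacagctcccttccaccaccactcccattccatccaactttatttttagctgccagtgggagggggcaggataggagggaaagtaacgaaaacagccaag
Itgb5: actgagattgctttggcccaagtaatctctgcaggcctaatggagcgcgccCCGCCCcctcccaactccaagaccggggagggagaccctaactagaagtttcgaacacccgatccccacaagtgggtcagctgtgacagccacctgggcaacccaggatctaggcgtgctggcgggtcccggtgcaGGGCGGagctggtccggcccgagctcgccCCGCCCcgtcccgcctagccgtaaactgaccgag
The Itgb5 window held 3 GC boxes and 65.2% G and C, and the Itga10 window held 0 GC boxes and 48% G and C, where the median over all 32851 windows of this length was 52.4%. A GC box was found in 32.7% of all windows and in 10 of the 19 windows of the 18 tested adhesion genes that had one. The RUNX core TGTGGT, searched on both strands, was in 14% of all windows and in neither of those shown, and among the tested adhesion genes only Cdh15 and Itga3 had it. The TATA box TATAAA, also searched on both strands, was in 12.4% of all windows and in 0 of the 19. The matches within the Itgb5 window did not overlap, and they describe letters only.

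**Figure D2:**
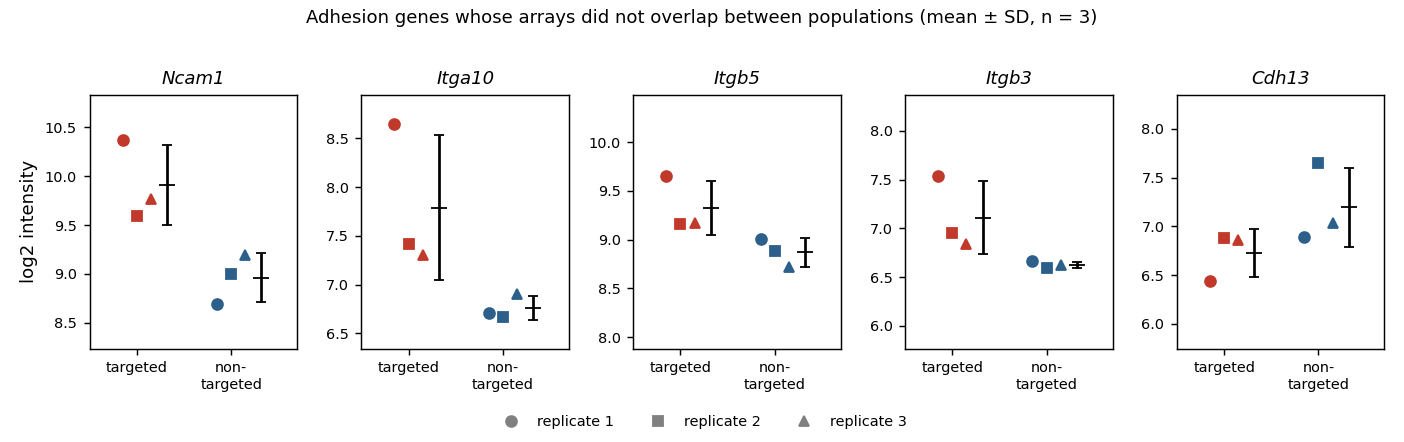
Log2 intensity (y axis, the same span in every panel) of the 5 adhesion genes with separate arrays, targeted arrays left and non-targeted arrays right, with the mean and SD beside each group (n = 3). Targeted replicate 1, the first circle in each panel, is the highest array for Ncam1, Itga10, Itgb5 and Itgb3 and the lowest for Cdh13.

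The chains shared by most integrin pairs did not differ beyond the spread of all 6 arrays. Itgb1, whose product is the partner of most alpha chains, was at 10.03, 9.73 and 9.66 on the targeted arrays, against 10.08, 9.97 and 9.96 on the non-targeted arrays. The arrays overlapped, and the log2 difference was -0.20 (SE 0.16, 95% interval -0.57 to 0.17, limma adjusted p = 0.9998). The overlap came from targeted replicate 1: without it the targeted arrays lay below all non-targeted ones and the log2 difference was -0.31. Itgav, the alpha chain that joins the Itgb3 and Itgb5 products, was at 9.61, 8.54 and 8.47 on the targeted arrays, against 9.0004, 8.58 and 9.05 on the non-targeted arrays. The first targeted array was the highest of the 6 and the other two the lowest, so the mean log2 difference was -0.0032 with a wide interval (-0.74 to 0.73). Without targeted replicate 1 it was -0.37.

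The collagen-binding chains other than Itga10 differed in either direction within their errors. Itga1 was at 10.34, 9.54 and 10.05 on the targeted arrays, against 10.19, 10.46 and 10.19 on the non-targeted arrays (log2 difference -0.31, 95% interval -0.83 to 0.21). Itga11 was at 8.70, 8.67 and 8.72 on the targeted arrays, against 8.51, 8.51 and 8.67 on the non-targeted arrays (0.13, -0.19 to 0.45). Both overlapped between the populations. The Itga1 difference was -0.49 without targeted replicate 1, when its arrays were separate, and -0.09 without targeted replicate 2. Itga11 had the tightest targeted arrays of the 3 collagen-binding genes tested, with an SD of 0.03. Itga2, the remaining collagen-binding chain, was under the filter on dim genes at a mean of 5.67.

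Of the chains that bind fibronectin and related proteins, Itga5, Itga8 and Itga9 did not separate the populations. Itga5, part of the main fibronectin receptor, was at 7.72, 7.33 and 7.03 on the targeted arrays, against 7.28, 7.85 and 7.56 on the non-targeted arrays (log2 difference -0.21, 95% interval -0.74 to 0.33). With 1 array left out that difference ran from -0.39, without targeted replicate 1, to -0.04, without targeted replicate 3. It was -0.35 without non-targeted replicate 1 and -0.06 without non-targeted replicate 2. Itga8, which pairs with the Itgb1 product and binds nephronectin, was at 6.33, 6.60 and 6.31 on the targeted arrays, against 6.96, 6.92 and 6.41 on the non-targeted arrays. It was the alpha gene with the largest difference downward (-0.36, SE 0.20, 95% interval -0.81 to 0.10, limma adjusted p = 0.9998). Itga9, a chain that binds VCAM-1 and osteopontin, was at 8.21, 8.26 and 8.66 on the targeted arrays, against 7.78, 8.67 and 8.69 on the non-targeted arrays. Its log2 difference was -0.0005 (95% interval -0.63 to 0.63), and its non-targeted arrays spread by more than the groups differed. The laminin-binding chains Itga3 and Itga7 differed by 0.04 and -0.0076 at means of 6.82 and 6.31, and Itga6 was under the filter at a mean of 5.09.

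Integrin genes known from leukocytes were dim or close to the filter. Itgal, Itgam, Itgax, Itgae and Itga4 had means of 5.79, 5.59, 5.52, 5.61 and 5.29 and were not tested. Itgad, Itgb2 and Itgb7 passed, with means of 6.35, 6.16 and 6.62 on the targeted arrays, against 6.29, 6.27 and 6.48 on the non-targeted arrays. Their log2 differences were 0.07, -0.10 and 0.14, with overlapping arrays. Itgb2, the beta chain common to leukocyte integrins, was at 5.82, 6.25 and 6.42 on the targeted arrays, against 6.26, 6.11 and 6.43 on the non-targeted arrays. It was lowest on targeted replicate 1, where the neutrophil markers were lowest too. That array also had the lowest median of the 33 tested adhesion genes, at 6.63, and of the 21 under the filter, at 5.22. Over all 6646 dim genes the median was 5.08 there and lowest, at 5.05, on non-targeted replicate 2. The part of neutrophils in the Itgb2 value was not tested. All 14 neutrophil markers had a value, and their intensities summed to 1372 to 11746 on the targeted arrays, against 9289 to 14359 in non-targeted cells. The chains known from epithelium also differed little, Itgb4 by 0.01 at a mean of 6.76 and Itgb8 by 0.07 at a mean of 6.36, and Itgb6 was under the filter at 4.21.

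**Figure D3:**
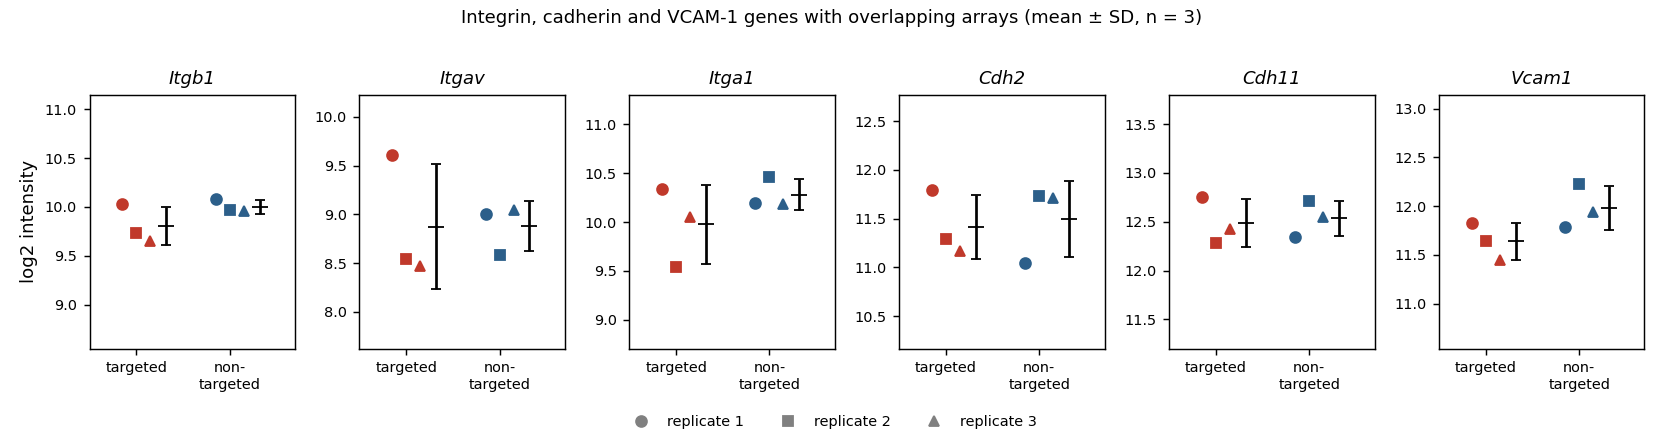
Log2 intensity (y axis, the same span in every panel) of 3 integrin genes, 2 cadherin genes and Vcam1, targeted arrays left and non-targeted arrays right, with the mean and SD beside each group (n = 3). In all 6 panels the arrays of the populations overlap. For Itgav, Cdh2 and Cdh11 the SD of each population is larger than the size of the difference of the means. For Itga1 this holds for the targeted SD of 0.40, beside a difference of -0.31. For Itgb1 the targeted SD of 0.20 and the difference of -0.20 are of like size.

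Cdh11 and Cdh2, the cadherin genes best known from osteoblasts and their precursors, did not differ between the populations beyond their spread. Cdh11 was at 12.75, 12.28 and 12.43 on the targeted arrays, against 12.35, 12.71 and 12.55 on the non-targeted arrays (log2 difference -0.05, 95% interval -0.47 to 0.38). Cdh2, which encodes N-cadherin, was at 11.79, 11.29 and 11.17 on the targeted arrays, against 11.05, 11.73 and 11.71 on the non-targeted arrays (-0.08, -0.66 to 0.50). For both genes targeted replicate 1 was the highest of the 6 arrays, and non-targeted replicate 1 lay below the other non-targeted arrays. On replicates 2 and 3 alone the log2 differences were -0.27 for Cdh11 and -0.49 for Cdh2. As a ratio of targeted to non-targeted intensity, the intervals ran from 0.63 to 1.42 for Cdh2 and from 0.72 to 1.298 for Cdh11. Probe sets that name a second gene were left out, among them 3 that name Cdh11 and 3 that name Itgam.

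Cdh13 was the adhesion gene with the largest difference downward. It encodes T-cadherin, a cadherin held by a lipid anchor in place of a membrane-spanning part and known as a binding partner of adiponectin. Its log2 intensities were 6.44, 6.88 and 6.86 on the targeted arrays, against 6.89, 7.65 and 7.04 on the non-targeted arrays. The groups did not overlap, but the highest targeted array and the lowest non-targeted array were nearly level. The difference was 1.38-fold lower (log2 difference -0.47, SE 0.24, 95% interval -1.02 to 0.08) and did not pass (limma, adjusted p = 0.9998). Without non-targeted replicate 2 it was -0.24.

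The cadherin gene with the largest difference upward was Cdh15, which encodes M-cadherin, known from skeletal muscle. It was at 6.56, 7.05 and 7.05 on the targeted arrays, against 6.64, 6.49 and 6.50 on the non-targeted arrays. The first targeted array lay among the non-targeted ones and the other targeted arrays lay above them. The log2 difference was 0.34 (SE 0.18, 95% interval -0.07 to 0.76, limma adjusted p = 0.9998), and without targeted replicate 1 it was 0.51. Of the 11 tested cadherin genes 6 were higher and 5 lower in targeted cells, with a median of 0.04. The other tested cadherins, Cdh1, Cdh4, Cdh5, Cdh6, Cdh16, Cdh22 and Cdh24, differed by -0.06 to 0.16. Their means over all arrays were 6.33, 6.74, 6.19, 6.07, 6.07, 6.23 and 7.28 in that order. Cdh24 had a second probe set that pointed the other way, at -0.12 beside 0.16 for the one used, and the value of the one used was 0.31 without targeted replicate 1.

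Cadherin genes that mark other cell types were close to the filter or under it. Cdh5, the VE-cadherin gene of endothelium, was at 6.21 ± 0.14 on the targeted arrays, against 6.17 ± 0.23 on the non-targeted arrays (SD over 3 arrays each). Of the 12 endothelial markers 7 were under the filter, among them Pecam1, Kdr, Emcn and Plvap, and 5 passed it, of which 3 were higher and 2 lower in targeted cells, with a median of 0.15. The brightest of them, Eng, the endoglin gene, had a mean of 7.53 and differed by -0.50 with overlapping arrays (limma, adjusted p = 0.9998). Cdh1, the E-cadherin gene of epithelium, was at 6.36 ± 0.18 on the targeted arrays, against 6.29 ± 0.10 on the non-targeted arrays. Cdh19, known from Schwann cells and their precursors, had a mean of 3.65.

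In all, 21 of the 54 adhesion genes were under the filter: 12 cadherins, 7 integrin alpha genes, Itgb6 and Alcam. The cadherins were Cdh3, Cdh7, Cdh8, Cdh9, Cdh10, Cdh12, Cdh17, Cdh18, Cdh19, Cdh20, Cdh23 and Cdh26, with means of 5.47, 5.31, 5.77, 3.65, 5.099, 4.21, 5.38, 5.13, 3.65, 5.68, 5.43 and 5.87 in that order. The means of the 21 ran from 3.65 to 5.91, and their differences, as values without a test, from -0.12 to 0.21. Of the 21, 14 were higher and 7 lower in targeted cells and 0 had separate arrays. Just inside the filter lay Cdh16 and Cdh6, each with a mean of 6.07, and just outside it lay Alcam at 5.91 and Cdh26 at 5.87. The median level of the 21 ran from 5.22 to 5.64 over the targeted arrays, against 5.33 to 5.57 over the non-targeted ones, so the dim level itself varied between arrays of a population.

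In the immunoglobulin superfamily, Ncam1 was higher in targeted cells. It encodes NCAM, a molecule of cell-to-cell binding known from nerve and muscle and also found on bone-forming cells. Its log2 intensities were 10.37, 9.59 and 9.77 on the targeted arrays, against 8.69, 8.99 and 9.20 on the non-targeted arrays. All targeted arrays lay above all non-targeted ones. The mean was 9.91 ± 0.41 on the targeted arrays, against 8.96 ± 0.25 on the non-targeted arrays (SD over 3 arrays each), a log2 difference of 0.95 (SE 0.24, 95% interval 0.39 to 1.51). It had the smallest p of the 33 and did not pass (limma, adjusted p = 0.758). Its unadjusted p stayed under 0.05 in all 18 alternative settings, and its log2 difference was 0.72 without targeted replicate 1. The Schwann cell markers, a cell type that carries NCAM, held 5 tested genes of 9, of which 4 were higher, with a median of 0.16. Their intensities summed to 1051 to 1223 on the targeted arrays, against 920 to 1073 in non-targeted cells. Erbb3 was under the filter, and the part of Schwann cells in the Ncam1 result was not tested.

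**Figure D4:**
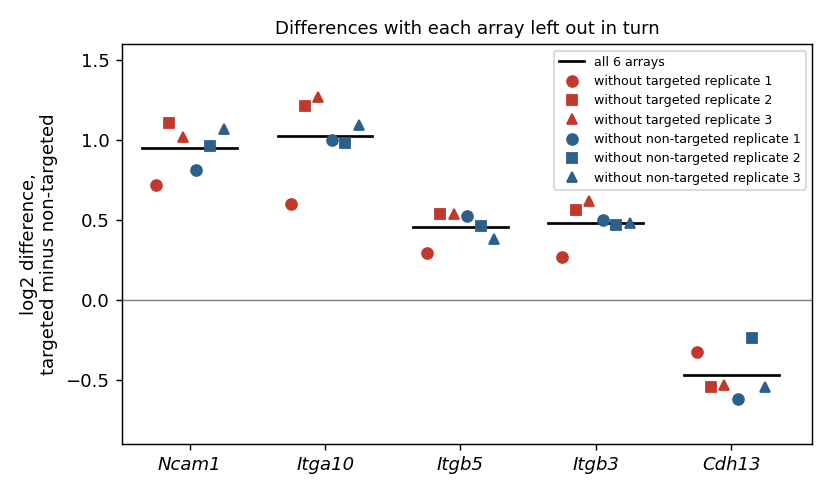
Log2 differences (targeted minus non-targeted, y axis) of the 5 adhesion genes with separate arrays, over all 6 arrays (black line) and with each array left out in turn (points). The smallest values of Ncam1, Itga10, Itgb5 and Itgb3, at 0.72, 0.60, 0.29 and 0.27, are those without targeted replicate 1, and that of Cdh13, at -0.24, is the one without non-targeted replicate 2.

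Vcam1 and Icam1, which present binding sites to leukocyte integrins, had lower means in targeted cells with overlapping arrays. Vcam1 was at 11.83, 11.64 and 11.45 on the targeted arrays, against 11.78, 12.23 and 11.94 on the non-targeted arrays. A single targeted array reached into the range of the non-targeted ones. The difference was 1.27-fold lower (log2 difference -0.34, SE 0.18, 95% interval -0.76 to 0.08) and did not pass (limma, adjusted p = 0.9998). Icam1 was at 7.42, 7.88 and 7.92 on the targeted arrays, against 7.84, 8.49 and 7.89 on the non-targeted arrays (-0.33, -0.87 to 0.20). Without non-targeted replicate 2, the highest array for Vcam1 and for Icam1, the log2 differences were -0.22 and -0.12, and without targeted replicate 1 that of Icam1 was -0.18. Icam2 differed by 0.07 at a mean of 6.77, and Alcam was under the filter.

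The CAR cell and marrow stroma markers were also mostly lower. Of these 14 genes, all tested, 13 were lower in targeted cells, with a median of -0.29. Of the 14, 4 (Lepr, Il7, Grem1 and Esm1) lay lower on every targeted array than on any non-targeted array, which held for 5.76% of all genes tested. None of the 14 passed. The intensities of the 14 summed to 36313 to 44594 on the targeted arrays, against 43453 to 51908 in non-targeted cells, ranges that overlap. The part of this list in the Vcam1 value was not tested.

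Genes that work with integrins and cadherins were taken from 5 lists, and 0 of their genes passed over all genes tested. Of 31 tested integrin adaptors and kinases 10 were higher and 21 lower in targeted cells, with a median of -0.07. Tns2, a tensin gene, differed by -0.46, Vcl, the vinculin gene, by -0.46 and Fermt2, the kindlin gene of most adherent cells, by -0.45. Fermt2 was at 9.61, 8.75 and 8.65 on the targeted arrays, against 9.45, 9.59 and 9.34 on the non-targeted arrays. The first targeted array stood with the non-targeted ones and apart from the other targeted arrays, so that the log2 difference was -0.76 without it, and it was -0.28 without targeted replicate 3. That of Vcl was -0.28 without non-targeted replicate 2. Without non-targeted replicate 2, 16 of the 31 were higher.

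Of 13 tested catenins and cadherin partners 9 were higher and 4 lower, with a median of 0.12. Ctnnb1, the gene of beta-catenin, was at 9.39, 8.62 and 8.98 on the targeted arrays, against 8.53, 8.46 and 8.48 on the non-targeted arrays. The arrays did not overlap, and the difference was 1.42-fold (log2 difference 0.51, SE 0.21, 95% interval 0.03 to 0.99, limma adjusted p = 0.9998). Without targeted replicate 1 it was 0.31. Jup, the gene of gamma-catenin, differed by -0.52 and Pkp4 by 0.40, both with overlapping arrays. The Jup difference was -0.20 without non-targeted replicate 2, and that of Pkp4 was 0.22 without targeted replicate 1.

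Among 28 tested matrix ligands of integrins 16 were higher and 12 lower, with a median of 0.05. Postn, the periostin gene, was at 10.44, 7.43 and 7.27 on the targeted arrays, against 7.26, 6.26 and 5.51 on the non-targeted arrays. The groups met without overlapping, and the first targeted array lay far above the remaining ones. Postn differed by 2.04, but by 1.01 without targeted replicate 1. Lamc1, a laminin chain gene, differed by -0.46 and Thbs1, a thrombospondin gene, by -0.36, both with overlapping arrays, and these 3 genes did not pass (limma, adjusted p = 0.9998 each). The Thbs1 difference was -0.22 without targeted replicate 2.

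Of 18 tested genes of the wider cadherin superfamily 10 were higher and 8 lower, with a median of 0.06. Fat1, a giant atypical cadherin, was at 10.40, 9.60 and 10.15 on the targeted arrays, against 9.26, 9.54 and 9.58 on the non-targeted arrays. The groups met without overlapping, and the difference was 1.5-fold (log2 difference 0.58, SE 0.23, 95% interval 0.06 to 1.11, limma adjusted p = 0.992). Its relative Fat3 was at 10.56, 7.83 and 8.52 on the targeted arrays, against 7.49, 6.15 and 6.97 on the non-targeted arrays. All targeted arrays lay above the non-targeted ones. The log2 difference was 2.10 (SE 0.67, 95% interval 0.55 to 3.65, limma adjusted p = 0.946), or 1.31 without targeted replicate 1. These values are from the brightest of 15 probe sets that name Fat3 alone, and the remaining ones are not described here. Pcdh15 differed by 0.30 with overlapping arrays, by 0.49 without targeted replicate 1 and by 0.19 without targeted replicate 3.

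Of 23 tested genes of other immunoglobulin and selectin adhesion molecules 13 were higher and 10 lower, with a median of 0.0074. Nectin1, a partner in adherens junctions, was at 8.03, 8.50 and 8.12 on the targeted arrays, against 7.54, 7.19 and 7.54 on the non-targeted arrays. The targeted arrays were all higher, with replicate 2 rather than replicate 1 at the top, and the difference was 1.73-fold (log2 difference 0.79, SE 0.19, 95% interval 0.36 to 1.23). It did not pass (limma, adjusted p = 0.734). Cadm1, a nectin-like adhesion gene, was at 10.15, 9.22 and 9.51 on the targeted arrays, against 8.61, 8.69 and 8.77 on the non-targeted arrays. These arrays were also separate, and the difference was 1.92-fold (log2 difference 0.94, SE 0.24, 95% interval 0.38 to 1.499) without passing (limma, adjusted p = 0.758). Without targeted replicate 1 the log2 differences were 0.89 for Nectin1 and 0.68 for Cadm1. Ceacam1 differed by -0.40 with overlapping arrays, and by -0.26 without non-targeted replicate 3.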

How the data were processed

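Sorted CAR cells were measured on 1 Affymetrix mogene ST array per sample, with cDNA made by a kit for very small amounts of RNA, per the labels' protocols. Per the submitters' processing notes, the deposited intensity of each probe set came from RMA in Expression Console 1.4 of Affymetrix. Values were linear, and their log2 was taken. The build and annotation behind them are not given in these sources. RMA scales arrays to each other, so a shift of all genes would not be seen, and intensities of different probe sets are not compared as amounts. No detection calls were used. Precision is limited by there being 3 arrays per group.

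Of 35556 probe sets, 21789 named 1 gene and 1621 several, and 12146 were not listed in the platform annotation used here. Symbols were updated by Entrez identifier through RefSeq's table of GRCm38.p6 (21698 matched). The probe set with the highest mean over 6 arrays was kept per gene (19938 genes), and the 33.3% of genes with the lowest means were left out (13292 tested). The test was limma's (version 3.58.1, R 4.3.3, lmFit and eBayes with no covariate, two-sided), adjusted by Benjamini-Hochberg over all genes tested, threshold 0.05. The procedure was tested on simulated data made of independent normal values, with no pairing and no array that stood apart. That test therefore does not tell how well it finds differences in the present arrays.

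The genes and lists were chosen with earlier results of these data known. Values per array were given for adhesion genes with an unadjusted p under 0.05 or separate arrays. They were also given for the brightest and the most different of each family, and for Vcam1, Cdh2, Cdh11, Itgb1 and Itgav. A few further genes (Itga5, Itga9, Itga11, Itga2b, Itgb2 and Icam1) were chosen after their values were seen. Up to 3 genes per partner list were named by smallest p, and only some of these were given with values per array. Alternatives were other filters, scalings, variance models and probe set rules, array weights, the replicate number as a block, and leaving out arrays.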

Additional observations from a re-analysis of the deposited data

How the results depend on the processing

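The 33 tested adhesion genes were refitted under 18 alternatives, and 0 passed over all genes in any of them. Their median log2 difference ran from -0.02 to 0.17 over the alternatives, and from -0.02 to 0.11 with 1 array left out. Over all genes 1 passed with array weights and 1 with a fixed replicate block, Dmp1 in both (limma, adjusted p = 0.0259 and 0.0153, range 0.0153 to 0.9999 over the alternatives). Without the filter on dim genes 32 of 54 adhesion genes were higher in targeted cells. Separate arrays were found for 5 to 15 of the 33 with 1 array left out (15 once targeted replicate 1 was dropped, 8 once non-targeted replicate 1 was) and for 26 on replicates 2 and 3 alone, where fewer arrays make separation easier. Over all genes tested the share with separate arrays was 9.07% with 6 arrays and 14.5% to 27.5% with 1 left out. It was 27.5% without targeted replicate 1 (45.5% of the adhesion genes), 21.9% without non-targeted replicate 1 (24.2%) and 51.6% on replicates 2 and 3 alone (78.8%). Of 582 refitted differences 532 kept their direction and 50 turned, all among 15 genes whose difference was at most 0.10 in size, and 18 genes kept their direction in every alternative in which they were tested. The cause of the turns was not tested.

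With 1 array left out the differences ran from -0.18 to 0.0555 for Cdh11, -0.13 to 0.10 for Cdh16, -0.30 to 0.0422 for Cdh2, -0.13 to 0.0103 for Cdh22, -0.0423 to 0.17 for Cdh5 and -0.0513 to 0.24 for Icam2. They ran from -0.0459 to 0.29 for Itga2b, -0.0904 to 0.16 for Itga3, -0.0503 to 0.0777 for Itga7, -0.30 to 0.15 for Itga9, -0.0541 to 0.22 for Itgad, -0.37 to 0.20 for Itgav, -0.23 to 0.0724 for Itgb2, -0.0603 to 0.13 for Itgb4 and -0.0317 to 0.18 for Itgb8. On replicates 2 and 3 alone Cdh16 was at 0.17, Cdh22 at 0.0292, Itga7 at 0.10 and Itgb2 at 0.0690. With array weights Itga3 was at -0.0767 and Itga7 at 0.0201. Itga9 and Itgav were at 0.0799 and 0.0306 after quantile normalization, 0.0664 and 0.0726 after cyclic loess and 0.0049 and 0.0022 with arrays centred on their medians, and Cdh11 was at 0.0204 after cyclic loess.

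In the partner lists the number of higher genes moved with the number tested. Without the filter it was 21 for the wider cadherin superfamily and 24 for the other immunoglobulin and selectin genes, and with the dimmer 50% of genes left out it was 5 and 6, and 5 for catenins. With 1 array left out it ran from 8 to 16 (without non-targeted replicate 2) for integrin adaptors and from 8 (without targeted replicate 3) to 13 for the other immunoglobulin and selectin genes.

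The labels do not tie a replicate number to a mouse, so the numbers were not taken as pairs in the main fit. Its p values therefore make no use of any pairing by mouse. Same-numbered arrays deviated from their group means with correlations across genes of -0.26, -0.12 and 0.07. Targeted replicate 1 went best with non-targeted replicate 2 (0.32). Such correlations cannot show which arrays came from the same mouse. With the replicate block, fixed or random, 0 of the 33 passed, and the numbers of genes with separate arrays (5) and higher (18) do not depend on it.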
